A study of Mus musculus with 36 samples.

Results

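Dissociated cardiomyocytes of adult CD-1 mice that had been kept in culture for 48 h were compared with the same kind of cells at 24 h, with 2 RNA sequencing libraries at each time. These 4 libraries are 4 of the 36 in the series, and were taken by their labels as explanted adult cardiomyocytes of those times. Explants at 0 h and at 72 h, with 2 libraries each, served for the estimate of the spread and are given beside the results as a description. No treatment, genotype or purification step is given in the labels for any explant group, the culture medium is not stated, and nothing in the labels ties the replicates to separate animals or cultures. The p-values therefore describe the scatter between these samples, which may be technical. Values are FPKM, fragments scaled to transcript length and library size. Counts could not be recovered from them, and sequencing depth is not known. Between 11151 and 11281 gene models per library had at least 1 FPKM at 24 and 48 h. The mitochondrial gene mt-Nd4 was listed at 0 in replicate 1 at 48 h and at 20804 FPKM in replicate 2.

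Adult ventricular cardiomyocytes beat through a sarcomere of actin, myosin and titin filaments, release calcium from the sarcoplasmic reticulum at each beat and take most of their energy from fatty acids. When they are taken out of the heart and plated they are known to lose this organisation over days. ATF4 is a transcription factor whose translation goes up when amino acids run short or unfolded proteins gather in the endoplasmic reticulum, and it switches on genes of amino acid uptake and synthesis. NRF2 is a transcription factor held back by KEAP1 and released by oxidants, and its targets make glutathione, NADPH and detoxifying enzymes.

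At 48 h the lists of ATF4, NRF2, tRNA synthetase, p53 and ribosomal protein genes had median differences above that of all genes, and the lists of sarcomere, calcium handling and fatty acid oxidation genes and of endothelial markers had medians below 0. No single gene passed the test. Of 11468 genes with at least 1 FPKM in 2 or more of the 4 libraries, 0 (0%) passed in limma with the Benjamini-Hochberg adjusted p held under 0.05, and the smallest adjusted p was 0.089. An unadjusted p under 0.05 was reached by 1652 genes (14.4%), of which 1147 were higher and 505 lower at 48 h. With the spread estimated from all 36 libraries of the series, the same contrast called 734 genes higher (6.40%) and 248 lower (2.16%). That second fit is an alternative, since its spread also comes from ventricles and isolated cardiomyocytes, which may scatter differently from explants. As no gene passed the main fit, all values below are descriptions, including the counts given with the spread of all 36 libraries.

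To describe groups of genes, a gene was counted as 2-fold higher or lower when the means differed by at least 1 on the log2(FPKM + 1) scale and both 48 h libraries lay on the same side of both 24 h libraries. On that rule 287 genes were higher (2.50% of those tested) and 227 lower (1.98%). With no minimum fold, both 48 h libraries were above both 24 h libraries in 4117 genes (35.9%) and below both in 1518 (13.2%), which is called libraries apart below. Higher genes were 73.1% of those apart, and 49.3% and 51.9% under the scalings named next. These percentages are the level against which each list is read. The median difference of all tested genes was 0.18, so that a list near 0.18 did not depart from the bulk of genes. Higher genes made up 55.8% of the 2-fold genes in the FPKM as deposited, 32.1% (150 higher, 318 lower) once libraries were scaled by median of ratios, and 34.6% (183 higher, 346 lower) once they were quantile normalized. These scalings brought the overall median to 0.00 and 0.02. The higher count was 295 without replicate 1 and 703 without replicate 2 at 48 h, and was 558 without replicate 1 and 431 without replicate 2 at 24 h. In these counts fewer libraries need to be apart.

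**Figure D1:**
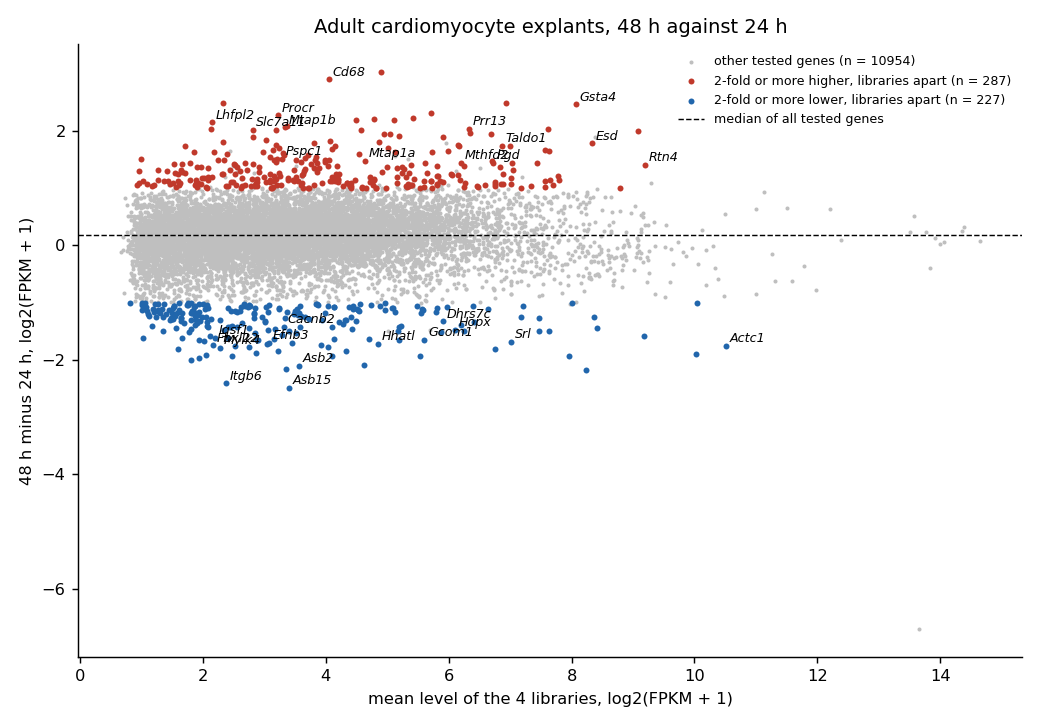
Difference between 48 h and 24 h against the mean level of the 4 libraries, both as log2(FPKM + 1), for each of the 11468 tested genes; red and blue points are the 287 higher and 227 lower genes of at least 2-fold with libraries apart, and the dashed line is the median of all genes. The labelled genes are the 14 named in each direction; the lone point near the bottom is mt-Nd4, listed at 0 in a single library.

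The genes with the smallest p among those 2-fold higher were led by Gsta4, a glutathione transferase that clears lipid peroxidation products (mm9 chr9:78039772-78057155). Gsta4 was at 68.4 and 93.9 FPKM at 24 h and at 524 and 383 FPKM at 48 h, a log2 difference of 2.47 (SE 0.24, limma adjusted p = 0.089). It had been at 56.4 and 62.2 FPKM at 0 h and was at 722 and 707 FPKM at 72 h. The 24 h libraries thus lay near the fresh cells and the 48 h libraries nearer to the 72 h cells.

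Mtap1b and Mtap1a encode microtubule-associated proteins best known from neurons. Mtap1b was at 2.76 and 2.95 FPKM at 24 h and at 17.3 and 13.2 FPKM at 48 h, a log2 difference of 2.07 (limma adjusted p = 0.089). Mtap1a was at 10.7 and 13.8 FPKM against 40.0 and 31.7 FPKM. Neither gene had overlapping libraries. Rtn4, which shapes tubules of the endoplasmic reticulum, was at 320 and 319 FPKM against 877 and 825 FPKM, and had been at 43.5 and 43.7 FPKM at 0 h. Procr, the protein C receptor, was at 2.06 and 2.11 FPKM against 19.6 and 9.80 FPKM. Esd, an esterase that acts on S-formylglutathione, was at 150 and 130 FPKM against 620 and 380 FPKM. In each of these 3 genes the 48 h libraries were above both 24 h libraries and below or near the 72 h level, which for Esd was 620 and 608 FPKM. The remaining higher genes of this kind were Prr13, Lhfpl2 and Pspc1, with log2 differences of 2.04, 2.15 and 1.51, of which Lhfpl2 had passed the filter through the 48 h libraries alone, and Slc7a11, Mthfd2, Taldo1, Pgd and Cd68, described with their lists.

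Among the 14 lower genes, Asb2 and Asb15 encode muscle proteins with ankyrin repeats and a SOCS box that serve ubiquitin ligases. Asb2 was at 17.9 and 18.4 FPKM at 24 h and at 3.74 and 3.18 FPKM at 48 h, a log2 difference of -2.11 (SE 0.23, limma adjusted p = 0.089). It had been at 141 and 134 FPKM in fresh cells, so most of its difference from 0 h was present by 24 h. Asb15 was at 16.7 and 18.1 FPKM at 0 h, 15.0 and 18.8 FPKM at 24 h and 1.60 and 2.90 FPKM at 48 h. For Asb15 the 24 h libraries overlapped with the 0 h libraries, and the lower level was first seen at 48 h. Itgb6, an integrin chain that binds latent TGF-beta, was at 9.57 and 5.97 FPKM against 0.81 and 0.45 FPKM; having passed the filter through the 24 h libraries alone, it had to be lower.

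Several of the lower genes serve the sarcoplasmic reticulum and the contractile apparatus. Srl encodes sarcalumenin, a calcium-binding protein of the sarcoplasmic reticulum, and was at 194 and 200 FPKM at 24 h against 56.0 and 65.8 FPKM at 48 h. Hhatl was at 45.9 and 40.4 FPKM against 10.9 and 14.1 FPKM. Dhrs7c, a dehydrogenase of the sarcoplasmic reticulum, was at 85.6 and 83.1 FPKM against 31.0 and 35.3 FPKM. In these 3 genes the replicates of a time were close to each other and well apart from those of the other time. Hopx, a homeodomain protein of the heart that does not bind DNA, was at 86.9 and 114 FPKM against 33.8 and 36.6 FPKM. The others were Gcom1, Efnb3, Mylk4, Igsf1 and Fbxl22, with log2 differences from -1.62 to -1.79, and Actc1 and Cacnb2, described next.

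Of the 27 listed sarcomere genes 23 were tested, and 4 of these were 2-fold lower (1.98% of all genes were) and 0 higher. Of the 23, 13 had libraries apart in the lower direction (13.2% of all genes did) and 2 in the higher (35.9%), and 8 had overlapping libraries. The list's median log2 difference was -0.52, against 0.18 for all genes, and it stayed below 0 under both other scalings. Tcap, which caps titin at the Z-disc (mm9 chr11:98245124-98246267), was at 441 and 546 FPKM at 24 h and at 117 and 100.04 FPKM at 48 h, a log2 difference of -2.17 (SE 0.35, limma adjusted p = 0.12). Actc1, cardiac alpha-actin (mm9 chr2:113873017-113879284), was at 2373 and 2136 FPKM against 633 and 698 FPKM, a log2 difference of -1.76 (SE 0.23, limma adjusted p = 0.089). Actc1 had been at 5293 and 6524 FPKM at 0 h and was at 106 and 143 FPKM at 72 h, so its 48 h level lay between the neighbouring times without overlap; its gene model overlaps that of A530058N18Rik, and reads of the 2 models may not be told apart.

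The myosin heavy chains were lower too. Myh6, the fast alpha chain of the adult mouse heart, was at 1714 and 1570 FPKM at 24 h and at 367 and 525 FPKM at 48 h, a log2 difference of -1.90. Its limma adjusted p was 0.84 because 0 h replicate 2 listed it at 0 beside 4762 FPKM in replicate 1, and was 0.095 with that value taken as missing. Myh7, the slow beta chain that is high in the fetal heart, was at 340 and 440 FPKM against 69.4 and 145 FPKM, a log2 difference of -1.94 (limma adjusted p = 0.16). The 48 h libraries of both chains lay below both 24 h libraries. Myh6 and Myh7 are near-identical neighbours and reads may have been shared between them.

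Other contractile genes were less far apart. Tnni3, cardiac troponin I, was at 2527 and 2728 FPKM at 24 h and at 1324 and 1589 FPKM at 48 h (log2 difference -0.86). Myl2, the ventricular regulatory light chain, was at 5278 and 4880 FPKM against 3054 and 2849 FPKM. Tnnt2, cardiac troponin T, was at 3818 and 4066 FPKM against 2723 and 3456 FPKM, a log2 difference of -0.36 (limma adjusted p = 0.52). Among the contractile genes named here Tcap, the myosin heavy chains and Actc1 were furthest apart and Tnnt2 least, which is a description with n = 2 at each time. Tnni1, slow skeletal troponin I of the fetal heart, was at or below 0.044 FPKM in all 4 libraries and was not tested.

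Calcium handling and ion channel genes had the lowest median of the pathway lists with more than 1 tested gene, at -0.95, and -1.16 and -0.90 under the other scalings. Of 30 listed 24 were tested. In these 11 were 2-fold lower (1.98% of all genes were) and 0 higher, and 18 had libraries apart in the lower direction (13.2%) and 0 in the higher. With the spread of all 36 libraries, 10 of the 24 were called lower, against 2.16% of all genes. Leaving out a single library gave 8 to 13 lower genes.

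Among the channels, Kcnip2, a subunit of the transient outward potassium channel, was at 36.4 and 24.4 FPKM at 24 h and at 9.44 and 6.0 FPKM at 48 h, a log2 difference of -1.85. Cacnb2, the beta subunit of the L-type calcium channel, was at 11.9 and 15.0 FPKM against 4.88 and 3.93 FPKM (log2 difference -1.42, limma adjusted p = 0.10). Scn4b, Kcnh2 and Kcnq1 had log2 differences of -1.36, -1.35 and -1.18.

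Of the calcium store genes, Hrc, a calcium-binding protein of the sarcoplasmic reticulum lumen, was at 233 and 284 FPKM at 24 h and at 75.0 and 110 FPKM at 48 h (log2 difference -1.49, SE 0.24, limma adjusted p = 0.12). Ryr2, the calcium release channel, was at 118 and 153 FPKM against 47.9 and 78.9 FPKM. Atp2a2, the calcium pump SERCA2, was at 1639 and 1191 FPKM against 641 and 756 FPKM. Pln, its inhibitor phospholamban, was at 871 and 1035 FPKM against 471 and 554 FPKM. Pump, inhibitor and release channel were thus lower at 48 h in both libraries.

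Fatty acid oxidation genes had a median of -0.53, and 21 of 28 tested genes had libraries apart in the lower direction (13.2% of all genes did) and 0 in the higher. Of the 28, 2 were 2-fold lower, against 1.98% of all genes, and 6 and 5 were after median-of-ratios and quantile scaling. Pdk4, a kinase that turns off pyruvate dehydrogenase, was at 221 and 192 FPKM in fresh cells, 35.1 and 41.6 FPKM at 24 h and 10.6 and 12.9 FPKM at 48 h. Fabp3, the heart fatty acid binding protein, was at 150 and 72.4 FPKM at 24 h against 50.8 and 26.2 FPKM at 48 h. Acsl1, which activates fatty acids, was at 115 and 127 FPKM against 54.4 and 66.1 FPKM. Etfdh, which passes their electrons to the respiratory chain, was at 158 and 172 FPKM against 91.0 and 92.2 FPKM.

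The respiratory chain and citric acid cycle list had a median of -0.21, and 0 of its 34 genes were 2-fold apart. Of the 34, 20 were apart in the lower direction (13.2% of all genes were) and 1 in the higher (35.9%). Ogdh, a citric acid cycle dehydrogenase subunit, was at 500 and 498 FPKM at 24 h and at 329 and 328 FPKM at 48 h. Regulators of energy metabolism had a median of -0.23. Esrrg, a nuclear receptor of oxidative metabolism, was at 7.85 and 8.62 FPKM against 4.80 and 3.91 FPKM. Klf15 was in the other direction at 3.12 and 1.93 FPKM against 7.43 and 4.25 FPKM, after 13.1 and 12.7 FPKM at 0 h.

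In glycolysis 2 isoforms stood apart in opposite directions. Slc2a1, the glucose transporter GLUT1, was at 19.8 and 21.6 FPKM at 24 h and at 46.8 and 61.7 FPKM at 48 h (log2 difference 1.34, limma adjusted p = 0.12). Eno3, the muscle enolase, was at 448 and 474 FPKM against 176 and 212 FPKM (log2 difference -1.25, limma adjusted p = 0.11). Slc2a4, the insulin-responsive transporter GLUT4, was at 64.8 and 43.2 FPKM against 36.6 and 24.2 FPKM. The list as a whole had a median of -0.17.

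**Figure D2:**
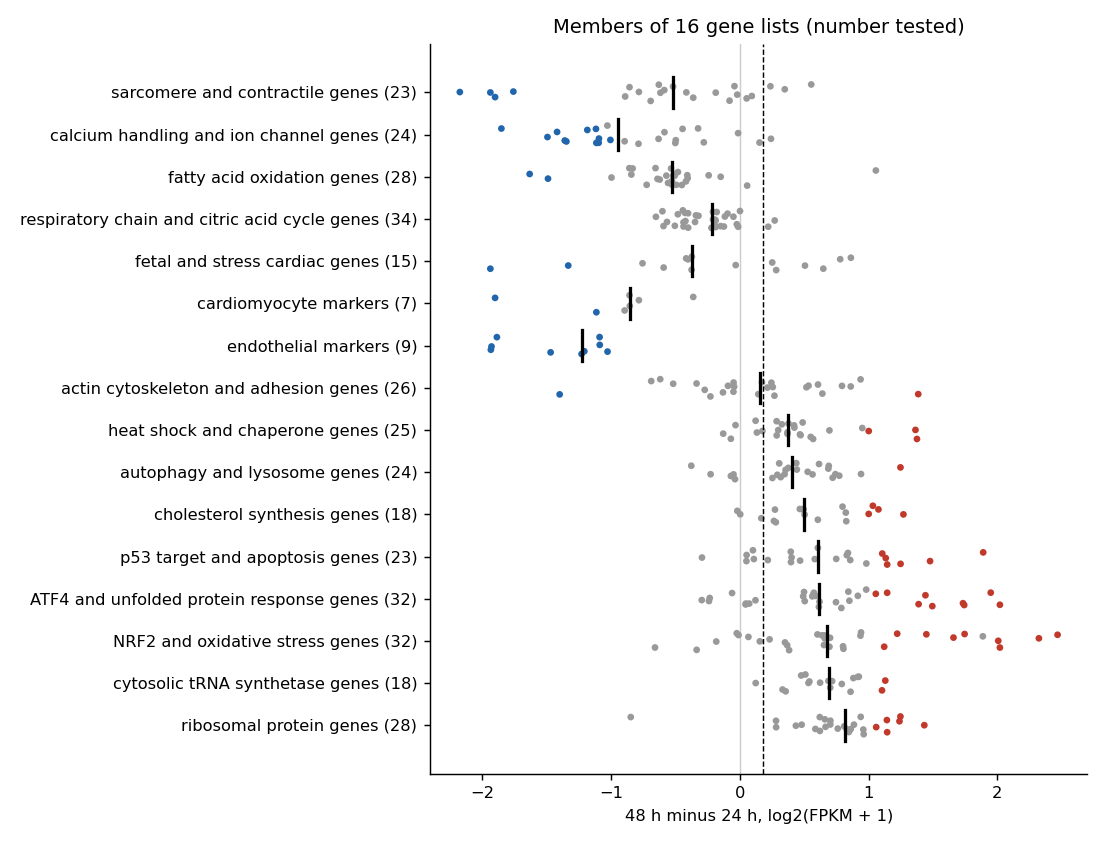
Difference between 48 h and 24 h, as log2(FPKM + 1), of each tested member of 16 gene lists; black bars are list medians, the dashed line is the median of all genes (0.18), and red and blue points are 2-fold higher or lower with libraries apart. The medians of the calcium handling, sarcomere and endothelial lists lie left of the dashed line. Those of the ATF4, NRF2, tRNA synthetase and ribosomal lists lie right of it, and single members of some lists lie on the other side.

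Genes of the ATF4 response were higher at 48 h in most cases. Of 36 listed 32 were tested. In these 9 were 2-fold higher (2.50% of all genes were) and 0 lower. Of the 32, 22 had libraries apart in the higher direction (35.9% of all genes did) and 0 in the lower (13.2%). The median log2 difference was 0.62 (0.42 and 0.58 under the other scalings, which left 6 genes 2-fold higher). With the spread of all 36 libraries, 12 of the 32 were called higher, against 6.40% of all genes. The count of 9 became 6 without replicate 1 at 48 h, and 12 without replicate 1 at 24 h or without replicate 2 at 48 h.

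The targets that make or take up amino acids were the furthest apart. Asns, asparagine synthetase (mm9 chr6:7625168-7643254), was at 0.21 FPKM in both fresh libraries, at 13.8 and 10.8 FPKM at 24 h and at 66.1 and 37.7 FPKM at 48 h, a log2 difference of 1.95 (SE 0.32, limma adjusted p = 0.12). Slc7a11, the cystine transporter that feeds glutathione synthesis and is on both the ATF4 and the NRF2 list (mm9 chr3:50168857-50247535), was at 1.74 FPKM in both 24 h libraries and at 12.4 and 8.26 FPKM at 48 h, a log2 difference of 2.02 (SE 0.26, limma adjusted p = 0.089). Psat1, of serine synthesis, was at 7.27 and 6.91 FPKM against 29.6 and 22.9 FPKM. In each of these genes the 24 h libraries were already above the fresh cells and the 48 h libraries were above the 24 h libraries.

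Cth, which makes cysteine from cystathionine, followed another course. It was at 1.02 and 1.09 FPKM at 0 h, 0.66 and 0.38 FPKM at 24 h and 3.89 and 4.19 FPKM at 48 h, a log2 difference of 1.73 (SE 0.22, limma adjusted p = 0.089). Its 24 h libraries were below the fresh cells, and as it passed the filter through the 48 h libraries alone it had to be higher at 48 h; it is 1 of the 9 counted above. Mthfd2, a mitochondrial folate enzyme, was at 0.71 and 0.56 FPKM at 0 h, 40.0 and 36.7 FPKM at 24 h and 125 and 89.1 FPKM at 48 h. Pck2, mitochondrial phosphoenolpyruvate carboxykinase, had a log2 difference of 1.5 between 48 and 24 h.

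The gene for the factor, Atf4, was at 260 and 313 FPKM at 24 h and at 506 and 520 FPKM at 48 h, a log2 difference of 0.84 (limma adjusted p = 0.20). Trib3, a pseudokinase that ATF4 switches on, was at 47.9 and 15.3 FPKM against 110 and 48.3 FPKM, a log2 difference of 1.39, so that its replicates were further from each other than those of Asns. Ddit3, which encodes CHOP, the factor of prolonged endoplasmic reticulum stress, was at 135 and 119 FPKM against 136 and 126 FPKM, a log2 difference of 0.05 (SE 0.28, limma adjusted p = 0.96). Ddit3 had been at 19.5 and 22.2 FPKM at 0 h. The endoplasmic reticulum chaperone Hspa5 was at 289 and 350 FPKM against 554 and 415 FPKM.

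Promoters were read from RefSeq, build GRCm38.p6, in the 250 bases before the gene start, to show the letters that ATF4 pairs with C/EBP proteins are known to bind. The motif searched was TGATGNAA on both strands. It was present in 3 of the 8 2-fold higher ATF4-list genes with a promoter in the table and in 7 of 29 tested members (24.1%). It was present in 2.22% of tested genes with a promoter and in 3.91% of all genes with a promoter. Over all genes 2-fold higher it was present in 4.32%, and over all genes 2-fold lower in 5.41%. The 3 promoters are shown around the motif, 5′ to 3′ on the gene's strand, with the motif in capitals, because they belong to the 2-fold higher list members that hold it; a match is a description and not a binding site.
Asns, chr6:7693210-7693248, minus strand: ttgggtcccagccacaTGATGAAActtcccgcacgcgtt
Slc7a11, chr3:50443637-50443695, minus strand: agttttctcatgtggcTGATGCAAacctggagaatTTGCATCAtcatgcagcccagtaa
Pck2, chr14:55540147-55540186, plus strand: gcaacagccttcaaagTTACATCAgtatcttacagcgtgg
The Slc7a11 promoter held 2 matches, in opposite orientation, and the match in Pck2 was on the other strand.

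The cytosolic tRNA synthetases, many of which ATF4 is known to switch on, were higher by small and even amounts. Of 18 tested genes 15 had libraries apart in the higher direction (35.9% of all genes did) and 0 in the lower, with a median log2 difference of 0.70 (0.49 under either other scaling). The 2-fold mark was passed by 2, Rars and Eprs, at 1.13 and 1.10, and by 0 after either rescaling. Gars was at 62.5 and 60.9 FPKM at 24 h and at 128 and 103 FPKM at 48 h. With the spread of all 36 libraries 10 of the 18 were called higher, against 6.40% of all genes.

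NRF2 and oxidative stress genes had a median log2 difference of 0.68 over 32 tested genes (0.47 and 0.54 under the other scalings). The 2-fold mark was passed in the higher direction by 9 (2.50% of all genes did) and in the lower by 0. Of the 32, 19 were apart in the higher direction (35.9% of all genes were) and 2 in the lower (13.2%). With the spread of all 36 libraries 12 were called higher (6.40% of all genes were) and 1 lower (2.16%). The count of 9 became 15 without replicate 2 at 48 h and 7 without replicate 1 at 48 h.

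Enzymes of the pentose phosphate pathway, which makes NADPH and pentoses, were among the list's members. Taldo1, transaldolase, was at 49.1 and 54.7 FPKM at 24 h and at 220 and 141 FPKM at 48 h, a log2 difference of 1.75 (SE 0.26, limma adjusted p = 0.10). Pgd, phosphogluconate dehydrogenase, an NADPH-producing step, was at 55.6 and 54.6 FPKM against 176 and 131 FPKM. Tkt, transketolase of the same pathway, was at 6.65 and 4.86 FPKM against 6.19 and 3.83 FPKM, with overlapping libraries.

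Hmox1, which breaks down heme, was at 17.8 and 10.4 FPKM at 0 h, 122 and 68.0 FPKM at 24 h and 383 and 220 FPKM at 48 h, a log2 difference of 1.66 (SE 0.52, limma adjusted p = 0.23). Gclm, the modifier subunit of glutathione synthesis, was at 26.6 and 37.9 FPKM at 24 h against 79.7 and 62.1 FPKM at 48 h. Prdx6, a peroxidase, was at 130 FPKM in both 24 h libraries against 356 and 261 FPKM. Gsta1 was at 11.6 and 21.9 FPKM against 66.6 and 106 FPKM; it has near-identical copies, so its reads may belong in part to them.

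Not all members of the list stood apart. Nqo1, a standard NRF2 target, was at 135 and 82.7 FPKM at 24 h and at 119 and 92.7 FPKM at 48 h, a log2 difference of -0.01 (SE 0.29, limma adjusted p = 0.99), after 28.2 and 21.9 FPKM at 0 h. Nfe2l2, which encodes NRF2, was at 42.1 and 21.3 FPKM against 45.8 and 27.6 FPKM. Sod2, mitochondrial superoxide dismutase, was lower, at 239 and 209 FPKM against 171 and 183 FPKM. The metallothionein Mt1 differed by 2.01 but its replicates were far apart, at 355 and 108 FPKM against 1137 and 550 FPKM.

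The antioxidant response element, searched as TGACNNNGC on both strands, was in the promoter of 7 of 27 tested list members (25.9%) and of 1 of 6 that were 2-fold higher, against 11.5% of all genes and 14.4% of tested genes. The single match among the 2-fold higher members is in Gclm and is printed to show the element beside a glutathione gene; the gene is on the plus strand of GRCm38.p6, and the match is on the other strand.
Gclm, chr3:122245407-122245447, plus strand: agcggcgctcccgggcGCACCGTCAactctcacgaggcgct
With 1 of 6, the share among the 2-fold higher members was near that of tested genes.

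**Figure D3:**
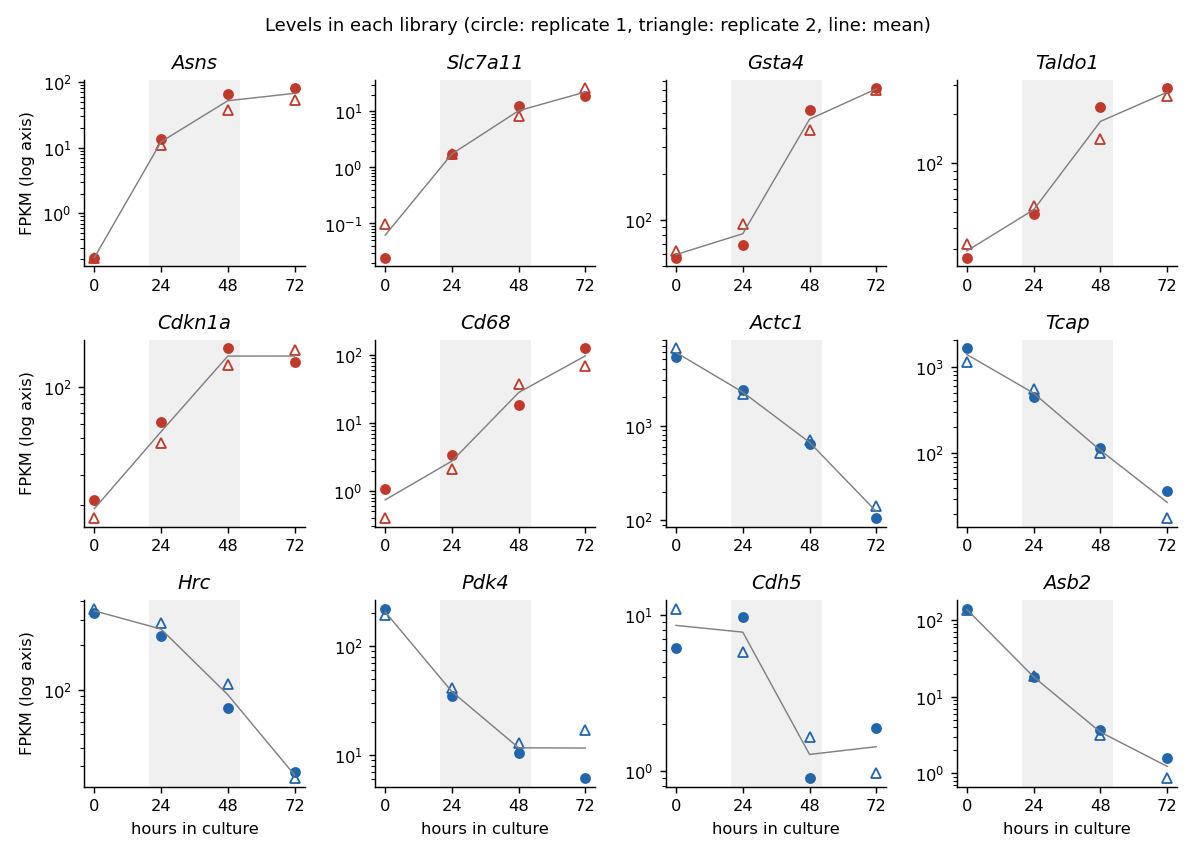
FPKM of 12 genes in each explant library at 0, 24, 48 and 72 h in culture, on a log axis with its own range in each panel; circles are replicate 1, triangles replicate 2, the line joins the means and the grey band marks the compared times. In all 12 panels the 24 h and 48 h libraries do not overlap, and Gsta4 and Cdh5 lie near their 0 h level at 24 h.

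Genes of the p53 response and apoptosis had a median of 0.61 (0.44 and 0.49 under the other scalings). Of 23 tested, 6 were 2-fold higher (2.50% of all genes were) and 0 lower. With the spread of all 36 libraries 8 were called higher, against 6.40% of all genes. Of the 23, 1 had passed the filter through the 48 h libraries alone and so had to be higher. Cdkn1a, the cell-cycle inhibitor p21, was at 21.2 and 16.6 FPKM at 0 h, 61.5 and 46.7 FPKM at 24 h and 169 and 135 FPKM at 48 h, a log2 difference of 1.48 (SE 0.24, limma adjusted p = 0.12). Gadd45a, a growth arrest gene, was at 31.5 and 15.5 FPKM at 24 h against 135 and 53.2 FPKM at 48 h. Bax, which permeabilises mitochondria, was at 41.4 and 36 FPKM against 87.5 and 68.3 FPKM, and Bcl2l1, which opposes it, was at 17.7 and 13.8 FPKM against 37.2 and 32.5 FPKM. Neither gene had overlapping libraries, and the difference of Bax was 0.98, short of the 2-fold mark. The count of 6 was 3 after median-of-ratios and 4 after quantile scaling, 2 without replicate 2 at 24 h and 3 without replicate 1 at 48 h, and 10 without replicate 1 at 24 h.

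Genes of cell division were barely expressed. Of the 30 listed mitosis genes 29 were in the table, 27 were under 1 FPKM in all 4 libraries and 1 was tested. Mki67, the proliferation marker, was at or below 0.02 FPKM and Ccnb1 at or below 0.091 FPKM in each of the 4 libraries. Cenpa, a centromere histone, was the tested gene, at 21.8 and 19.8 FPKM at 24 h and at 7.95 and 7.79 FPKM at 48 h. Of 15 tested DNA replication genes 0 were 2-fold apart, and their median of 0.19 was that of all genes. Ccnd2, a G1 cyclin, was at 14.6 and 20.9 FPKM against 42.8 and 30.8 FPKM, beside the higher Cdkn1a.

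Cholesterol synthesis genes had a median of 0.50. Of 18 tested genes 4 were 2-fold higher (2.50% of all genes were) and 0 lower, and 13 had libraries apart in the higher direction (35.9%). Of the 18, 3 had passed the filter on low values through the 48 h libraries alone and so had to be higher. Sqle, squalene epoxidase, was at 1.11 and 0.755 FPKM at 24 h and at 3.84 and 3.45 FPKM at 48 h. Insig1, a sterol sensor, was at 10.2 and 13.7 FPKM against 25.2 and 25.1 FPKM. The 4 became 1 with median-of-ratios scaling and 2 with quantile normalization.

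Lysosome and autophagy genes had a median of 0.41, with 15 of 24 apart in the higher direction (35.9% of all genes were) and 1 in the lower (13.2%), and 1 of the 24 2-fold higher. Atp6v1h, a subunit of the proton pump, was at 36.7 and 39.3 FPKM at 24 h and at 94.5 and 88.7 FPKM at 48 h (log2 difference 1.25, limma adjusted p = 0.13). Sqstm1, the autophagy adaptor p62, was at 1520 and 1535 FPKM against 3124 and 2759 FPKM. Sqstm1 had been at 200 and 310 FPKM at 0 h.

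Heat shock genes had a median of 0.38 and 3 of 25 were 2-fold higher (2.50% of all genes were). Hspa1b was at 24.8 and 34.0 FPKM at 0 h, 3.18 and 2.78 FPKM at 24 h, 14.3 and 5.95 FPKM at 48 h and 66.1 and 69.6 FPKM at 72 h. Its near-identical neighbour Hspa1a ran the same way, and reads may have been shared between them. The 24 h level of Hspa1b was thus the lowest of the 4 times.

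The ribosomal protein genes had the highest median of the pathway lists, 0.82 over 28 tested genes (0.61 and 0.65 under the other scalings). The 2-fold mark was passed in the higher direction by 6 (2.50% of all genes did). With the spread of all 36 libraries 10 were called higher (6.40% of all genes were) and 1 lower (2.16%). Rps18 was at 71.3 and 65.2 FPKM at 24 h and at 203 and 131 FPKM at 48 h, and Rpl4 was at 121 and 145 FPKM against 249 and 230 FPKM. Rpl3l, the muscle form of Rpl3, was in the other direction, at 154 and 176 FPKM against 81.7 and 102 FPKM. Many of these genes have processed pseudogenes of like sequence in the table, so their values are uncertain: Rpl3 was at 2.51 and 1.12 FPKM against 11.9 and 3.20 FPKM, while its pseudogene model Rpl3-ps1 was at 58.4 and 55.4 FPKM against 241 and 154 FPKM. The count of 6 was 3 under either other scaling, 2 without replicate 1 at 48 h and 11 without replicate 2 at 48 h.

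Signals and their targets gave single genes rather than whole lists. Osmr, the receptor of oncostatin M, was at 0.95 and 1.15 FPKM at 0 h, 7.45 and 5.09 FPKM at 24 h and 26.1 and 14.1 FPKM at 48 h, while the median of its list was -0.06. Ctgf and Cyr61, matrix-associated targets of YAP and SRF, were higher, and Cyr61 was at 22.4 and 17.9 FPKM at 24 h against 51.0 and 55.8 FPKM at 48 h. In fresh cells Cyr61 had been at 128 and 149 FPKM and Ctgf at 42.2 and 25.0 FPKM, above their 24 h levels. Ctgf and Cyr61 were the only 2 of 15 tested Hippo and YAP targets that were 2-fold higher (2.50% of all genes were). That list had a median of 0.13, below the 0.18 of all genes, and of -0.05 and -0.04 under the other scalings. Id1 and Id3, targets of BMP signalling, were lower, with Id3 at 9.34 and 4.29 FPKM against 1.63 and 1.92 FPKM. Smad6, an inhibitor of that pathway, passed the filter through the 24 h libraries alone and so had to be lower. In the TGF-beta and BMP list 3 of 20 tested genes, Smad6 among them, were 2-fold lower (1.98% of all genes were) and 0 higher. Of the 20, 2 had passed the filter through the 24 h libraries alone and so had to be lower. The count of 3 was 0 without replicate 1 at 24 h, and 2 or 3 without any other library. The list's median was -0.22, with 9 genes apart in the lower direction (13.2% of all genes were) and 4 in the higher (35.9%). Fgf1 was at 54.3 and 24.8 FPKM against 9.04 and 6.82 FPKM.

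Among cardiac transcription factors 0 were 2-fold higher and 2 lower (1.98% of all genes were) of 23 tested, with a median of -0.31. Mef2c, a factor of muscle gene expression, was at 13.3 and 13.1 FPKM at 24 h and at 5.93 and 4.88 FPKM at 48 h. Gata4 was at 28.8 and 26.9 FPKM against 46.3 and 23.8 FPKM, with overlapping libraries. Runx1, linked to dedifferentiation of cardiomyocytes, was under the filter at 0.38 and 0.46 FPKM against 0.57 and 0.48 FPKM.

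Fetal and stress genes differed in both directions. Of 15 tested 0 were 2-fold higher and 2 lower (1.98% of all genes were). Nppa, atrial natriuretic peptide, was at 238 and 168 FPKM at 24 h and at 184 and 124 FPKM at 48 h (limma adjusted p = 0.78). Nppb, the B-type peptide, was at 810 and 235 FPKM against 592 and 651 FPKM, with the 24 h replicates on either side of the 48 h libraries. Ankrd1, a stretch-responsive ankyrin repeat protein, was at 2814 and 1771 FPKM against 3684 and 3327 FPKM, and Flnc, filamin C, at 212 FPKM in both 24 h libraries against 404 and 370 FPKM; in both genes the libraries did not overlap. Il13ra1 was at 50.8 and 33.4 FPKM against 31.5 and 33.9 FPKM, Il4ra differed by -0.18 (limma adjusted p = 0.84) and Il13 was listed at 0 in all 4 libraries.

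The labelled cell type was checked against its markers. The 7 cardiomyocyte markers in the table of 10 listed were well expressed at both times. All 7 were lower at 48 h in both libraries (13.2% of all genes were), with a median of -0.86. Their summed level was 23818 and 19457 FPKM at 0 h, 15284 and 15170 FPKM at 24 h, 8455 and 9511 FPKM at 48 h and 2956 and 3234 FPKM at 72 h. The sum of 19457 FPKM lacks the marker Myh6, which was listed at 0 in 0 h replicate 2 beside 4762 FPKM in replicate 1. In such bulk libraries fewer cells of a type and less RNA of these genes per cell cannot be told apart. Fibroblast markers summed to 14.3 and 8.5 FPKM at 24 h and to 12.1 and 11.8 FPKM at 48 h, with 7 of 11 under 1 FPKM in all 4 libraries. Of the 10 smooth muscle and pericyte markers 4 were tested, with 1 apart in the higher direction (35.9% of all genes were) and 2 in the lower (13.2%). Of the 4, 1 had passed the filter through the 24 h libraries alone and so had to be lower. The 10 markers summed to 762 and 625 FPKM at 24 h and to 909 and 791 FPKM at 48 h. Des, which cardiomyocytes also express, made up 723 and 589 FPKM and 895 and 774 FPKM of these sums. Acta2, smooth muscle actin, was at 3.27 and 6.88 FPKM against 1.76 and 0.92 FPKM, after 103 and 46.8 FPKM at 0 h.

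Endothelial markers were lower as a group. Of the 11 listed 10 were in the table and 9 were tested. All 9 were 2-fold lower (1.98% of all genes were), with a median of -1.23. Of the 9, 2 had passed the filter through the 24 h libraries alone and so had to be lower. Their summed level was 93.4 and 57.5 FPKM at 24 h and 14.8 and 23.7 FPKM at 48 h. Cdh5, the cadherin of endothelial junctions, was at 6.18 and 11 FPKM at 0 h, 9.74 and 5.85 FPKM at 24 h and 0.90 and 1.66 FPKM at 48 h, a log2 difference of -1.93 (SE 0.37, limma adjusted p = 0.14). Kdr, the main VEGF receptor, was at 8.66 and 4.36 FPKM at 24 h against 1.08 and 2.24 FPKM at 48 h. With the spread of all 36 libraries 0 of the 9 were called, and the count was 4 without replicate 1 at 24 h. The part of these cells in the other lower lists was not tested.

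Cd68, a lysosomal glycoprotein used as a macrophage marker (mm9 chr11:69477714-69479655), was at 1.08 and 0.40 FPKM at 0 h, 3.40 and 2.11 FPKM at 24 h, 18.7 and 37.9 FPKM at 48 h and 127 and 70.5 FPKM at 72 h, a log2 difference of 2.90 between 48 and 24 h (SE 0.43, limma adjusted p = 0.10). Csf1r, the receptor for macrophage colony-stimulating factor, was at 0.31 and 0.21 FPKM at 24 h against 1.26 and 2.35 FPKM at 48 h; it passed the filter through the 48 h libraries alone and so had to be higher. The other defining markers did not accompany them. Of the 14 macrophage and leukocyte markers 11 were under 1 FPKM in all 4 libraries; Ptprc, which encodes CD45, was at 0.03 and 0.00 FPKM at each time, and Cd163 was listed at 0 throughout. Neutrophil and lymphocyte markers were under 1 FPKM in all 4 libraries. Erythroid markers summed to 10.8 FPKM in replicate 2 at 48 h and to at most 0.2 FPKM in the other 3.

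**Figure D4:**
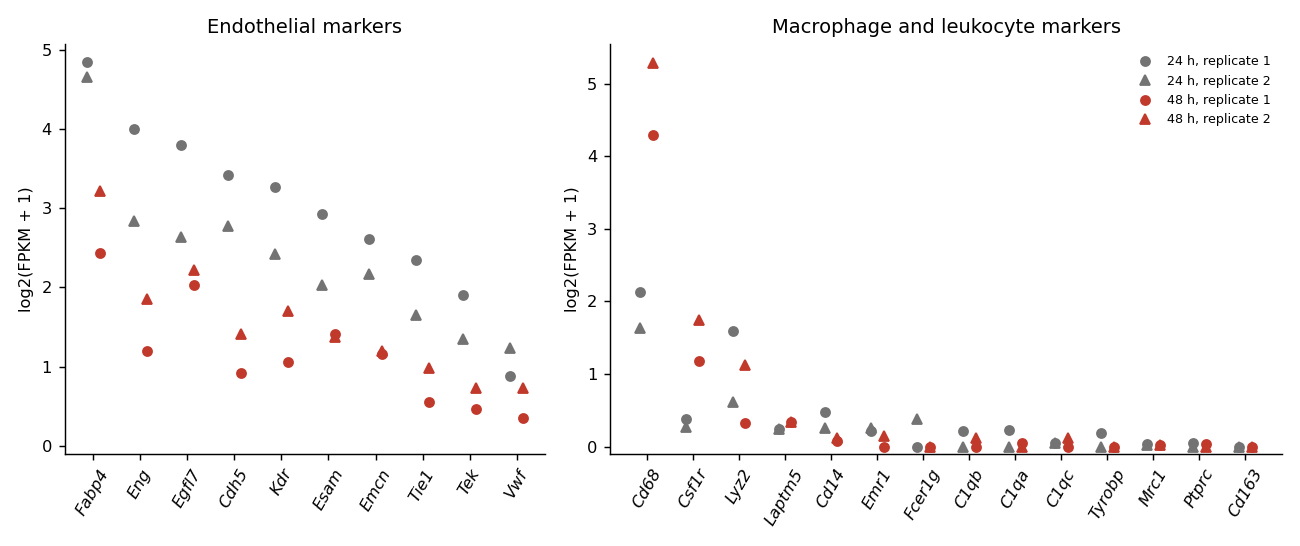
Levels of 10 endothelial and 14 macrophage and leukocyte markers in the 4 libraries, as log2(FPKM + 1); grey is 24 h, red is 48 h, circles are replicate 1 and triangles replicate 2. Endothelial markers are lower at 48 h, and of the macrophage markers Cd68 and Csf1r are higher while those for CD45 and complement C1q stay at or near 0.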

How the data were processed

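Total RNA was extracted with Trizol and sequenced on Illumina instruments (GA-2, Hi-Seq), per the labels' protocols. The deposited values are FPKM, made by the authors with TopHat 1.3.2, Bowtie 0.12.7, Cuffdiff and Cufflinks 1.2.1 on mouse build mm9, per the submitters' processing notes; the annotation is not given in the sources used here. The table has 36128 gene models. As FPKM keep no counts, no count model was used and no counting interval is given.

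Group means were fitted to log2(FPKM + 1) of the 8 explant libraries in limma 3.58.1 (R 4.3.3), with a variance trend and two-sided tests, after being tested on simulated data. Fold changes on this scale understate those of low genes. Genes named singly were the 14 per direction with a group mean of at least 5 FPKM, libraries apart and at least 2-fold, by smallest p since none was called, the 2 leading members of each list and a fixed set; other members were picked with their values in view. The 46 lists (900 of 946 symbols found), their members and the motifs were chosen with earlier results of these data known. Acta1 was not analysed here. Replicate numbers were not taken as pairs. Alternatives were another pseudocount, filters, scalings, library sets and variance settings, and leaving out each library.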

Additional observations from a re-analysis of the deposited data

How the results depend on the processing

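The absence of calls (0 genes) depended on the estimate of the spread. With all 36 libraries in a single fit 982 genes were called, and with the replicate number as a block over the 8 explant libraries 965 were called (715 higher and 250 lower). The labels do not say that equal numbers mark a shared animal or day; the differences between replicates 1 and 2 correlated across genes by 0.40 to 0.64 over the 6 pairs of times, which is a hint from the data, not the design, and the cause was not tested. Without a filter 3 genes were called, and leaving out 1 library gave 0 to 1, the 1 without replicate 2 at 48 h. The other alternatives called 0. Of 98 tested named genes 73 passed with the block and 65 with all 36 libraries, against 965 and 982 of all 11468 tested genes. Apart from a fixed set, the named genes were picked by smallest p in this same contrast. Their high share was thus built in and is no further evidence. Of the named genes 1 changed sign under median-of-ratios scaling and up to 3 when a library was left out. The 2-fold higher count was 521 with a pseudocount of 0.1, 150 after median-of-ratios scaling, 183 after quantile normalization and 295 to 703 with 1 of the 4 compared libraries left out, where fewer libraries need to be apart. The 2-fold lower count was 374 with a pseudocount of 0.1, 136 with at least 5 FPKM and 346 after quantile normalization. Without replicate 1 at 48 h the 2-fold higher count became 1 for tRNA synthetase, 2 for cholesterol and 1 for heat shock genes; without replicate 2 at 48 h it became 6 for tRNA synthetases, and without replicate 2 at 24 h the lower count became 4 for fatty acid oxidation. List medians changed sign between scalings for the actin cytoskeleton, integrin, extracellular matrix, immediate early, Hippo and epicardial lists. With 2 libraries at each time and unknown depth, differences under 2-fold are poorly resolved.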

Other observations

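Genes outside the lists were read after their values were seen. Star, the protein that carries cholesterol into mitochondria for steroid synthesis, had the largest difference in the higher direction of the tested genes, 3.04 on the log2(FPKM + 1) scale (SE 0.66, limma adjusted p = 0.15). It was at 0.998 and 0.54 FPKM at 0 h, 9.87 and 2.17 FPKM at 24 h, 30.5 and 72.6 FPKM at 48 h and 130 and 60.8 FPKM at 72 h. Tuba1a, an alpha-tubulin, was at 9.28 and 4.05 FPKM at 24 h against 30.9 and 19.3 FPKM at 48 h, and S100a11, a calcium-binding protein, was at 2.29 and 2.95 FPKM against 13.9 and 13.5 FPKM. Ampd3, an AMP deaminase, was at 32.1 and 29.4 FPKM against 139 and 81.1 FPKM. Popdc2, a cAMP-binding membrane protein of heart muscle, was lower, at 108 and 133 FPKM against 39.0 and 56.1 FPKM, as was Chrm2, the muscarinic receptor of the heart, at 23.0 and 31.3 FPKM against 11.7 and 9.16 FPKM. Jam2, Cd34 and Ly6c1, which endothelial cells are known to express, were lower with log2 differences of -1.46, -1.64 and -2.16.

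Gene models named Gm with digits or with a pseudogene suffix made up 79 of the 287 genes 2-fold higher (27.5%), 12 of the 227 lower (5.29%) and 14.2% of all tested models. Without them 208 genes were higher and 215 lower. Eef1a1, an elongation factor with many pseudogenes, was at 17.1 and 13.9 FPKM at 24 h and at 66.6 and 37.8 FPKM at 48 h. Reads of a gene and its copies could be split between models in these values, and their part in the higher count was not tested.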
